A study of Homo sapiens with 12 samples.

Results

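Transcripts of 36 genes that make amino acids, carry them across the plasma membrane or load them onto tRNA were followed in oral squamous cell carcinoma (OSCC) cells treated with rapamycin. The genes were chosen as a named list, with earlier results of these data known. They comprised 7 of serine and one-carbon synthesis, 7 of other amino acid synthesis, 8 of transport and 14 cytosolic tRNA synthetases. Their symbols were matched to Ensembl identifiers. All 36 were found among the 58302 genes of the count table, and all 36 had enough counts to be tested. RNA-seq comprised 4 libraries, 2 from OSCC cells given 100 nM rapamycin and 2 from control cells. MeRIP-seq, in which RNA fragments carrying N6-methyladenosine (m6A) are pulled down with an antibody and sequenced beside the input RNA, comprised 8 libraries, that is 1 immunoprecipitate and its input from HSC3 control, HSC3 rapamycin, CAL33 control and CAL33 rapamycin cells, with rapamycin given at 100 nM for 3 days. HSC3 and CAL33 are established human OSCC cell lines. The labels of the RNA-seq libraries assign both rapamycin replicates to HSC3 and both control replicates to CAL33, so that by these labels treatment and cell line cannot be told apart. In the MeRIP-seq libraries, number 1 is HSC3 and number 2 is CAL33 under both treatments. No label gives a vehicle for the control cells or says that the replicates came from separate cultures. The p-values therefore rest only on the spread between these libraries, estimated in part across genes. They cannot be taken to measure a spread between cultures.

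Cells make serine from a glycolytic intermediate in the steps run by PHGDH, PSAT1 and PSPH, and the SHMT and MTHFD enzymes then pass its carbon to folate for nucleotide and methionine synthesis. Aminoacyl-tRNA synthetases join each amino acid to its tRNA, and solute carriers of the SLC1, SLC6, SLC7 and SLC38 families bring amino acids into the cell. Many of these genes are known targets of the transcription factor ATF4, whose translation rises when amino acids run short. Rapamycin inhibits mTORC1, the kinase complex that couples amino acid supply to protein synthesis and autophagy.

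Total counts ranged from 18492273 to 23763098 per RNA-seq library. Same-numbered libraries resembled each other far more than libraries of the same treatment, with a correlation of log2 CPM across genes of 0.97 and 0.96 against 0.77 between the rapamycin replicates and 0.81 between the control replicates. Rapamycin was therefore compared with control in a fit of the treatment alone and in a second fit with the number as a block. Levels are given as CPM, the counts of a gene relative to the library total scaled by TMM, and are compared between libraries but not between genes, since transcript length was not corrected. Of 8 markers of epithelial cells, CDH1, EPCAM and SFN were between 157 and 673 CPM in every library, whereas KRT5, KRT14, KRT17, KRT6A and TP63 were low in number 1, and KRT14 was at 0 in both libraries of that number. These 8 markers summed to 879 and 3422 CPM in rapamycin replicates 1 and 2 against 1082 and 4783 CPM in the control replicates. In the blocked fit KRT5, KRT14 and KRT6A were lower with rapamycin, and the other 5 did not pass. The KRT14 call rests on number 2. KRT17 was higher with rapamycin in both pairs, at 5.05 and 2119 CPM against 4.89 and 1346 CPM. CDH1 and TP63 went opposite ways in the pairs. The 6 fibroblast and immune markers summed to between 8.79 and 31.9 CPM, with COL1A2, DCN and PTPRC at 0 in every library. Most of the sum was COL1A1, at 29.3 and 28.4 CPM with rapamycin against 22.0 and 8.79 CPM in the controls. COL1A1 was higher in both pairs and did not pass with the block (log2 fold change 1.04, SE 0.35, adjusted p = 0.0679 by edgeR). LUM was 2.58 and 0.11 CPM against 3.46 and 0 CPM. The part of these differences in the results that follow was not tested. In such bulk RNA, fewer cells of a type and less RNA per cell cannot be told apart.

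The sequence to which ATF4 and its C/EBP partners bind in many amino acid genes, the amino acid response element, has the core TGATGNAA. This core, read on both strands as TGATGNAA or TTNCATCA, was searched in the 250 bases before each RefSeq start site of GRCh38.p14. A start-site window was on hand for 27 of the 36 members. The core was found for 7 of these 27 (25.9%), compared with 1061 of 27305 genes (3.89%), and in 8 of 43 windows (18.6%) compared with 1104 of 35116 (3.14%). No window was on hand for PSPH, SHMT2, ALDH1L2, PYCR1, GPT2, SLC7A11, YARS1, LARS1 and VARS1. The other 20 members with a window lack the core there. The core was not itself used to choose the members, but many of them are known ATF4 targets. Their share with the core is therefore not independent of that choice, and the 7 matches are printed as a description. Each is written 5′ to 3′ on the strand of its gene, with the core in capitals.
ASNS: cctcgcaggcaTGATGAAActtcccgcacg
MTHFD1L: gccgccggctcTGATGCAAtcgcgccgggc
SLC1A5: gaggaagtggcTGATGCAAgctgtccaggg
AARS1: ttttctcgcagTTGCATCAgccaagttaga
GOT1: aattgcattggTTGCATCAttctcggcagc
IARS1: cccgcattttcagcgcgTTGCATCAcctcc
GARS1: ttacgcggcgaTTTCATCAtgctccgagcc
The ASNS stretch lies at chr7:97872458-97872487 on the minus strand, and its core begins 68 bases before the start site. The MTHFD1L stretch lies at chr6:150866346-150866375 on the plus strand, 129 and 90 bases before a pair of annotated start sites. Those of SLC1A5 (chr19:46784893-46784922), AARS1 (chr16:70289675-70289704), GOT1 (chr10:99430804-99430833) and IARS1 (chr9:92293698-92293727) are on the minus strand, and that of GARS1 (chr7:30594834-30594863) is on the plus strand. Their cores begin 97, 187, 198, 13 and 33 bases before the start. The stretches of ASNS, MTHFD1L, SLC1A5 and GARS1 lie inside the RefSeq bounds of their gene, before a start site within it. Those of AARS1, GOT1 and IARS1 lie outside the bounds of their gene. On the minus strand, the genes SLC1A5 and ASNS begin at chr19:46788594 and chr7:97928441, well before their stretches. ASNS, MTHFD1L and SLC1A5 hold the core in the direction of the gene and the other 4 hold its reverse complement. These are matches of letters and not measured binding sites.

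With the treatment alone in the fit, 0 of the 36 members passed the threshold (adjusted p = 0.9997 for each, edgeR quasi-likelihood test with Benjamini-Hochberg adjustment over 15826 genes), as did 0% of all tested genes. At an unadjusted p under 0.05 there were 8 members and 446 genes, and DESeq2 called 3 members higher, SLC7A11, AARS1 and CARS1, beside 22 higher and 20 lower among all genes. With the number as a block, 17 members passed the threshold, compared with 8.15% of all tested genes. Of these, 16 were higher with rapamycin, beside 4.65% of all genes, and 1, HARS1, was lower, beside 3.5%. Among all genes the block called 736 higher and 554 lower, of which 57.1% were higher, and with upper-quartile in place of TMM scaling it called 805 higher and 360 lower, of which 69.1% were higher. Under that scaling all 17 members kept their call, and MTHFD2 and PYCR1 passed too.

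Without any model, both rapamycin replicates lay above both control replicates for 19 of the 36 members, compared with 15.0% of all tested genes. Both lay below both controls for PSPH, ALDH18A1 and HARS1, compared with 16.5% of all genes, and the groups overlapped for the other 14. Within the numbered pairs, 27 members were higher with rapamycin in both pairs, 4 were lower in both, and 5 went opposite ways, compared with 5472, 5034 and 4756 of all 15826 tested genes. The median difference in log2 CPM of the members was 1.02 in number 1 and 0.58 in number 2, against 0.0030 and 0.03 over all genes. In the fit without the block, the median log2 fold change of the members was 0.78, against 0.06 over all tested genes. By role, the medians in that fit were 0.72 for serine and one-carbon synthesis, 1.39 for other synthesis, 0.92 for transport and 0.75 for tRNA charging.

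**Figure D1:**
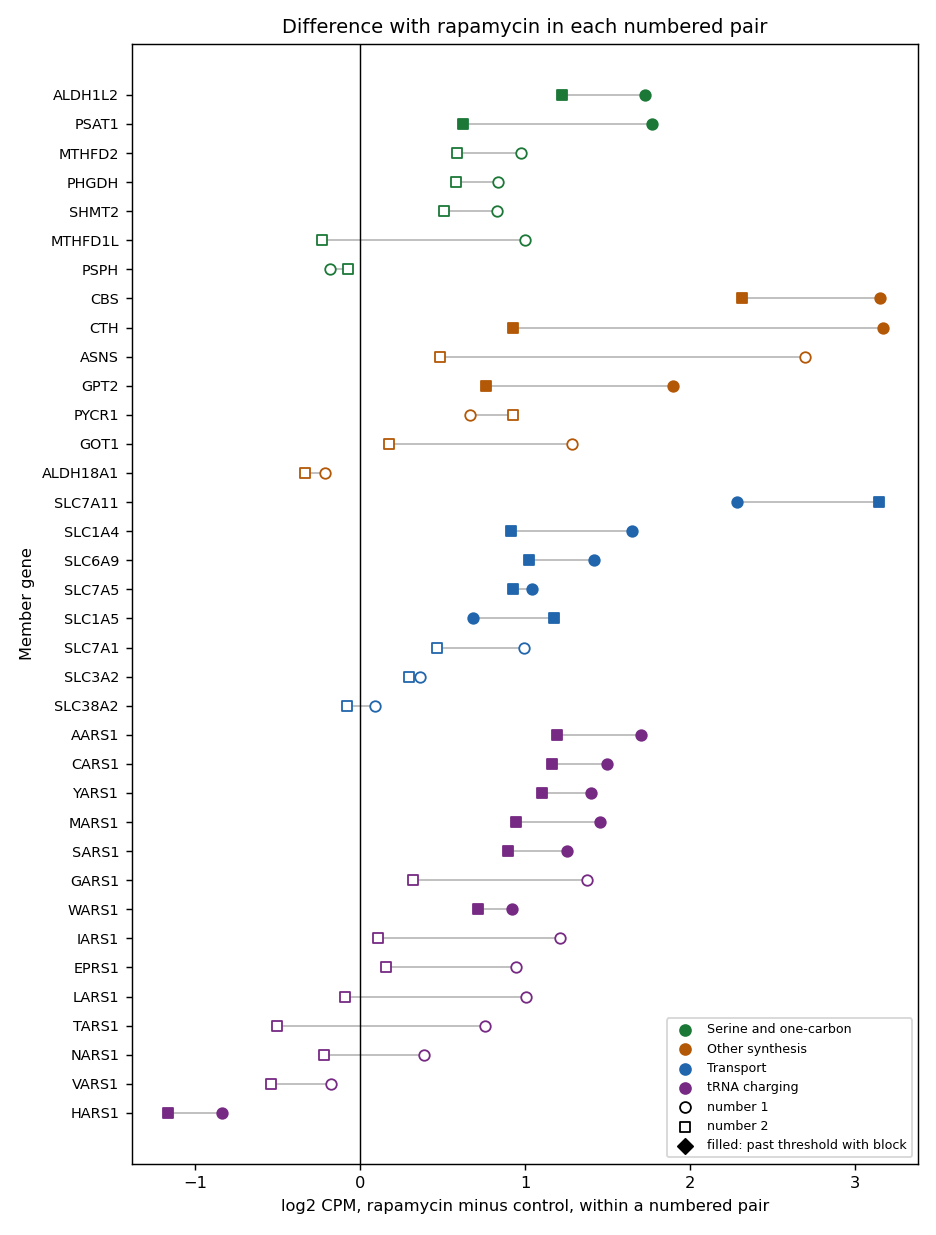
Difference in log2 CPM between rapamycin and control within number 1 (circles) and number 2 (squares) for each of the 36 members, coloured by role, with filled symbols for members past the threshold in the blocked fit. Both symbols lie to the right of 0 for 27 members and to the left for 4.

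In the serine and one-carbon group, PSAT1 and ALDH1L2 were higher with rapamycin in the blocked fit and the other 5 members did not pass. PSAT1 (ENSG00000135069, chr9:78297125-78330093), the aminotransferase of the serine pathway, was 742 and 316 CPM in rapamycin replicates 1 and 2 against 218 and 204 CPM in control replicates 1 and 2. The groups did not overlap, and rapamycin replicate 1 stood far above the other 3 libraries. The log2 fold change of PSAT1 was 1.33 (SE 0.52) without the block and 1.20 (SE 0.29, adjusted p = 0.0140 by edgeR) with it, and 0.56 without rapamycin replicate 1 and without the block. ALDH1L2 (ENSG00000136010), the mitochondrial formyltetrahydrofolate dehydrogenase, was 26.7 and 2.30 CPM with rapamycin against 7.99 and 0.929 CPM in the controls. It was high in both number 1 libraries and low in both number 2 libraries, so that the groups overlapped while each pair was higher with rapamycin. Its log2 fold change was 1.70 (SE 1.64) without the block and 1.56 (SE 0.44, adjusted p = 0.0275) with it. Without rapamycin replicate 1 and without the block, the value of ALDH1L2 was −0.98.

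MTHFD2, the mitochondrial methylenetetrahydrofolate dehydrogenase, was 338 and 291 CPM with rapamycin against 172 and 194 CPM in the controls. Both treated libraries were thus above both controls, and the log2 fold change was 0.78 (SE 0.29) without the block and 0.78 (SE 0.26, adjusted p = 0.0582) with it. PHGDH, the first enzyme of the pathway, was 585 and 475 CPM against 328 and 318 CPM (blocked log2 fold change 0.71, adjusted p = 0.0861). SHMT2, which splits serine to glycine in mitochondria, was 434 and 349 CPM against 245 and 245 CPM (0.67, adjusted p = 0.105). Neither overlapped between the groups and neither passed. PSPH, the phosphatase that releases serine, was 33.5 and 37.2 CPM against 38.0 and 39.2 CPM, slightly lower with rapamycin in both pairs. MTHFD1L, the mitochondrial formate-producing enzyme, was 107 and 84.6 CPM against 53.8 and 99.6 CPM, higher in number 1 and lower in number 2. The summed level of the 7 genes was 2267 and 1555 CPM with rapamycin against 1062 and 1101 CPM in the controls.

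**Figure D2:**
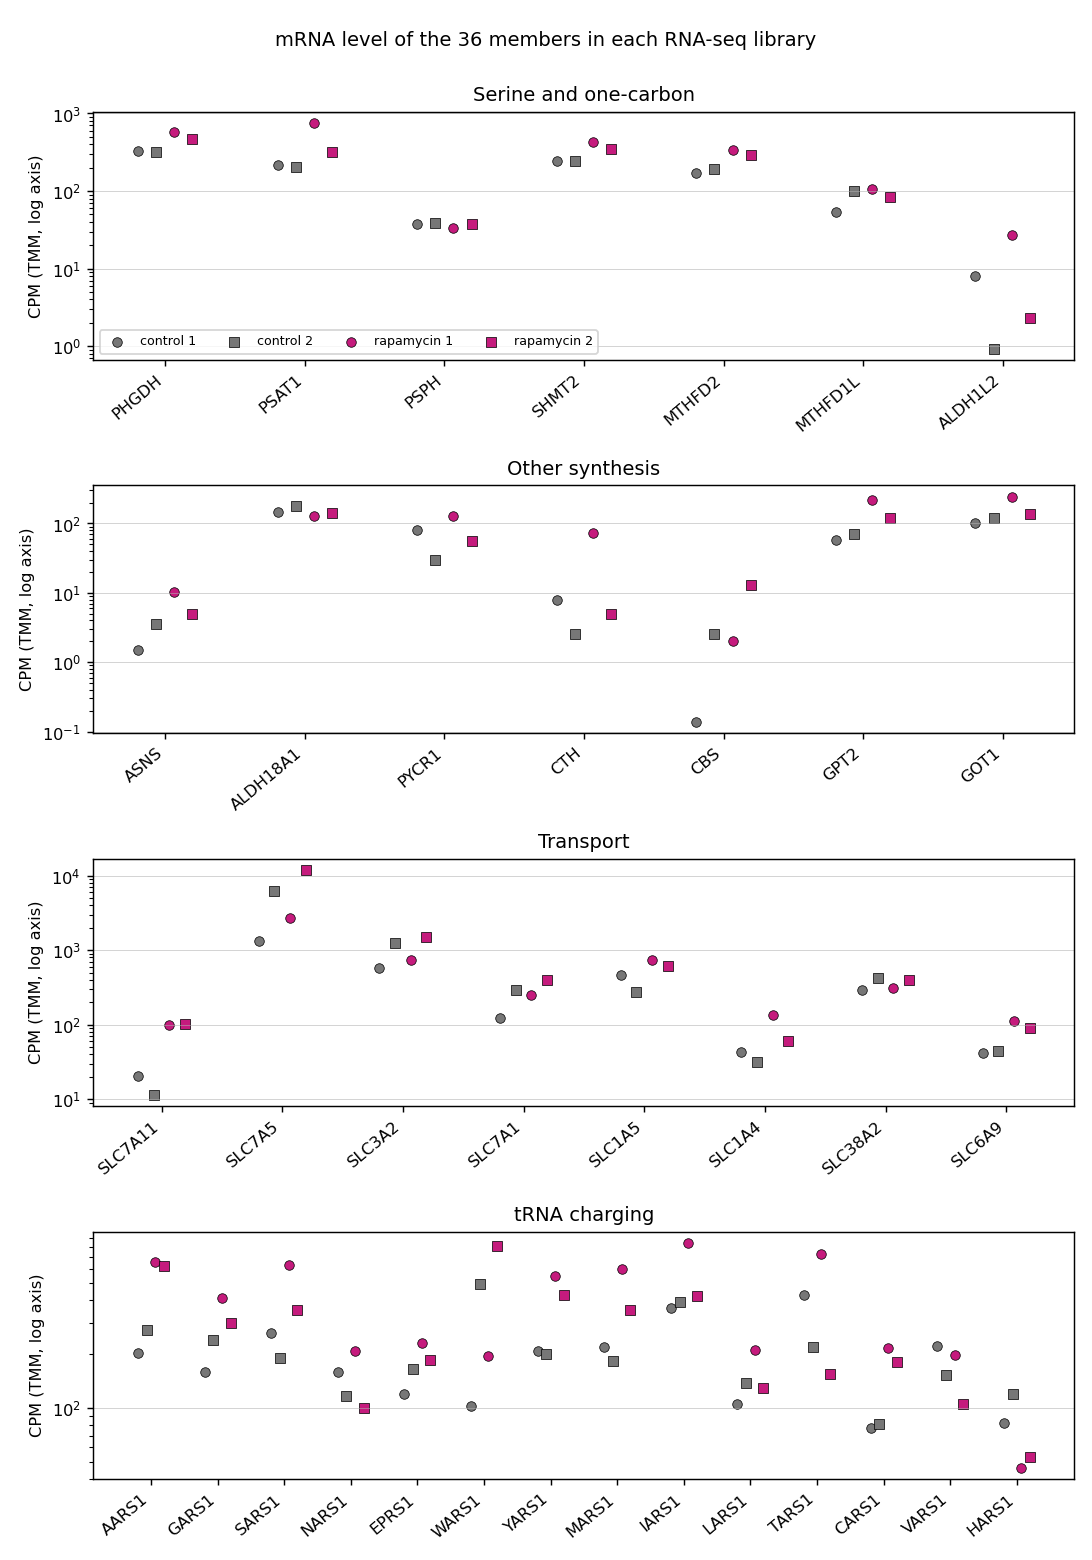
Level of each of the 36 members in the 4 RNA-seq libraries (CPM after TMM, log axis), with 1 panel for each role, circles for number 1, squares for number 2, grey for control and magenta for rapamycin. SLC7A11 is near 100 CPM in both rapamycin libraries and at 20.4 and 11.4 CPM in the controls, whereas SLC7A5 and WARS1 are separated mainly by number.

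Among the enzymes of other amino acids, CTH, CBS and GPT2 were higher with rapamycin in the blocked fit, and ASNS, ALDH18A1, PYCR1 and GOT1 did not pass. GPT2 (ENSG00000166123, chr16:46884362-46931289), the mitochondrial alanine transaminase, was 216 and 120 CPM with rapamycin against 57.7 and 70.8 CPM in the controls. It was higher in both treated libraries than in either control, with a log2 fold change of 1.39 (SE 0.42) without the block and 1.33 (SE 0.29, adjusted p = 0.00714) with it. CTH (ENSG00000116761, chr1:70411268-70439851), which makes cysteine from cystathionine, was 72.2 and 4.99 CPM with rapamycin against 7.94 and 2.58 CPM in the controls. Most of this difference lay in rapamycin replicate 1, which was 9.09-fold its numbered control, compared with 1.94-fold in number 2. The log2 fold change of CTH was 2.87 (SE 1.49) without the block and 2.16 (SE 0.52, adjusted p = 0.0325) with it, and it was −0.10 without rapamycin replicate 1 and without the block.

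CBS (ENSG00000160200), which forms the cystathionine that CTH cleaves, had 38 and 237 counts with rapamycin against 3 and 60 counts in the controls, or 2.00 and 13.0 CPM against 0.14 and 2.53 CPM. It was low in number 1 and higher in number 2 under both treatments, the reverse of CTH. The ratio of CPM in number 1 was 14.4, with an exact 95% interval from 4.58 to 73.0 that covers counting error only, and in number 2 it was 5.13. The log2 fold change of CBS was 2.48 (SE 1.77) without the block and 2.81 (SE 0.58, adjusted p = 0.00452) with it. Without the block, it was 0.55 without rapamycin replicate 2, 1.49 without control replicate 1 and 5.68 without control replicate 2. The counts of CBS are uncertain, because a near-identical copy, CBSL, is known in this genome build and reads could be split between them.

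ASNS (ENSG00000070669), asparagine synthetase, was 10.4 and 4.94 CPM with rapamycin against 1.52 and 3.51 CPM in the controls. The groups did not overlap, but ASNS was 6.83-fold higher in number 1 and 1.41-fold in number 2, and its log2 fold change, 1.61 (SE 0.84) without the block, did not pass with it (SE 0.57, adjusted p = 0.0878). GOT1, the cytosolic aspartate transaminase, was 244 and 136 CPM against 100.2 and 121 CPM (blocked log2 fold change 0.73, adjusted p = 0.116). PYCR1, which completes proline synthesis, was 127 and 56.1 CPM against 79.9 and 29.5 CPM, higher with rapamycin in both pairs while number 1 exceeded number 2 under both treatments (blocked log2 fold change 0.80, adjusted p = 0.0596). ALDH18A1, which opens the proline pathway, was 127 and 141 CPM against 148 and 177 CPM. It was thus below its control in both pairs without passing (blocked log2 fold change −0.27, adjusted p = 0.547). The median of these 7 enzymes, 1.39, was 0.28 without rapamycin replicate 1.

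Of the 8 transport genes, 5 were higher with rapamycin in the blocked fit and none was lower. SLC7A11 (ENSG00000151012, chr4:138164097-138242349), the cystine-glutamate exchanger, was 99.6 and 102 CPM with rapamycin against 20.4 and 11.4 CPM in the controls. The mean was 101 ± 1.87 CPM (SD, n = 2) with rapamycin and 15.9 ± 6.30 CPM (SD, n = 2) in the controls, and the treated libraries lay close together and well above both controls. Its log2 fold change was 2.67 (SE 0.43) without the block and 2.72 (SE 0.30, adjusted p = 6.06e-06) with it, the smallest adjusted p among the members. DESeq2 without the block gave an adjusted p of 0.000354 for SLC7A11. SLC6A9, the glycine transporter GlyT1, was 113 and 90.7 CPM against 42.3 and 44.6 CPM. It did not overlap between groups either, and its log2 fold change was 1.23 (SE 0.30) without and 1.22 (SE 0.27, adjusted p = 0.00634) with the block.

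SLC1A4 and SLC1A5 encode the neutral amino acid transporters ASCT1 and ASCT2, the latter a main route of glutamine uptake. SLC1A4 was 137 and 60.3 CPM with rapamycin against 43.5 and 32.0 CPM in the controls, and its blocked log2 fold change was 1.29 (SE 0.28, adjusted p = 0.00614). SLC1A5 was 751 and 624 CPM against 469 and 276 CPM, with a blocked log2 fold change of 0.93 (SE 0.26, adjusted p = 0.0284). In both genes the treated libraries lay above both controls. The fits without the block gave 1.38 (SE 0.53) for SLC1A4 and 0.89 (SE 0.40) for SLC1A5.

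SLC7A5 (ENSG00000103257, chr16:87830023-87869507) and SLC3A2 encode the light chain LAT1 and the heavy chain of the large neutral amino acid exchanger. SLC7A5 was 2732 and 12041 CPM with rapamycin against 1328 and 6336 CPM in the controls, and took between 0.133% and 1.17% of all counts of a library. The number separated these libraries more than the treatment did, and SLC7A5 was 2.06-fold higher with rapamycin in number 1 and 1.90-fold in number 2. Its log2 fold change was 0.95 (SE 1.11) without the block and 0.98 (SE 0.27, adjusted p = 0.0242) with it, and it was −0.51 without rapamycin replicate 2 and without the block. SLC3A2 was 738 and 1525 CPM against 574 and 1240 CPM, with the same order of libraries as SLC7A5 but a blocked log2 fold change of 0.33 that did not pass (SE 0.26, adjusted p = 0.466). SLC7A1, the cationic amino acid transporter CAT1, was 248 and 402 CPM against 125 and 291 CPM (blocked log2 fold change 0.73, adjusted p = 0.0798). SLC38A2, the sodium-coupled transporter SNAT2, was 308 and 395 CPM against 290 and 418 CPM. Its log2 fold change was −0.01 (SE 0.35) without and 0.0046 (SE 0.25) with the block, so that neither direction was detectable.

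Of the 14 cytosolic synthetases, 6 were higher and 1 was lower with rapamycin in the blocked fit, and 7 did not pass. AARS1 (ENSG00000090861, chr16:70252298-70289506), the alanine enzyme, was 658 and 627 CPM with rapamycin against 202 and 274 CPM in the controls. The mean was 643 ± 22.3 CPM (SD, n = 2) with rapamycin and 238 ± 50.8 CPM (SD, n = 2) in the controls, with no overlap. Its log2 fold change was 1.43 (SE 0.32) without the block and 1.45 (SE 0.27, adjusted p = 0.00176) with it. CARS1, which charges cysteine tRNA, was 218 and 181 CPM against 77.3 and 80.7 CPM, and its log2 fold change was 1.34 (SE 0.28) without and 1.33 (SE 0.26, adjusted p = 0.00277) with the block. YARS1, the tyrosine enzyme, was 551 and 428 CPM against 209 and 199 CPM, with 1.26 (SE 0.30) without and 1.25 (SE 0.26, adjusted p = 0.0045) with the block. For both genes the controls lay close together and the treated libraries lay well above them.

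MARS1, the methionine enzyme, was 603 and 353 CPM with rapamycin against 220 and 183 CPM in the controls, and SARS1, the serine enzyme, was 631 and 353 CPM against 264 and 189 CPM. Rapamycin replicate 1 was the highest library for both, and the groups did not overlap. The blocked log2 fold change was 1.20 for MARS1 (SE 0.26, adjusted p = 0.00633) and 1.08 for SARS1 (SE 0.26, adjusted p = 0.0109). WARS1, the tryptophan enzyme, was 195 and 810 CPM against 103 and 493 CPM. As with SLC7A5, number 2 exceeded number 1 under both treatments, and the log2 fold change was 0.75 (SE 1.09) without the block and 0.82 (SE 0.26, adjusted p = 0.0463) with it. Without the block, it was −0.64 without rapamycin replicate 2 and −0.04 without control replicate 1. HARS1 (ENSG00000170445, chr5:140673905-140691370), the histidine enzyme, was 46.0 and 53.2 CPM with rapamycin against 82.5 and 120 CPM in the controls, and among the 14 synthetases was the 1 whose treated libraries both lay below both controls. Its log2 fold change was −1.03 (SE 0.34) without the block and −1.01 (SE 0.26, adjusted p = 0.0189) with it.

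Of the 7 synthetases that did not pass, 6 had a positive difference in number 1 and VARS1 a negative one. IARS1 (isoleucine) was 841 and 422 CPM with rapamycin against 362 and 391 CPM in the controls, GARS1 (glycine) was 415 and 298 CPM against 160 and 239 CPM, and EPRS1 (glutamate and proline) was 231 and 185 CPM against 120 and 166 CPM. For these 3 genes both treated libraries lay above both controls, with the smaller difference in number 2. LARS1 (leucine) was 211 and 130 CPM against 105 and 138 CPM, TARS1 (threonine) was 730 and 156 CPM against 432 and 220 CPM, and NARS1 (asparagine) was 209 and 100.0 CPM against 160 and 116 CPM. Each of the latter was higher with rapamycin in number 1 and lower in number 2. VARS1 (valine) was 197 and 105 CPM against 223 and 154 CPM, lower in both pairs and more so in number 2 (blocked log2 fold change −0.36, SE 0.26, adjusted p = 0.415). The median difference of the 14 synthetases was 1.11 in number 1 and 0.24 in number 2, and their median without the block, 0.75, was 0.45 without rapamycin replicate 1.

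The members differed between numbers under the same treatment as well. The difference between number 1 and number 2 exceeded 1 on the log2 scale in 9 members among the controls and in 12 with rapamycin, compared with 5694 and 6170 of all 15826 tested genes, and it had the same sign under both treatments in 22 of 36, compared with 12383 of all genes. These counts are below the corresponding shares of all genes. SLC7A5 (−2.25 in the controls, −2.14 with rapamycin), WARS1 (−2.26, −2.05), SLC3A2 (−1.11, −1.05) and CBS (−3.48, −2.64) were lower in number 1. ALDH1L2 (2.98, 3.48), CTH (1.59, 3.83) and PYCR1 (1.43, 1.18) were higher in number 1. ASNS was lower in number 1 among the controls (−1.15) and higher in number 1 with rapamycin (1.06). The differences between numbers were not tested.

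**Figure D3:**
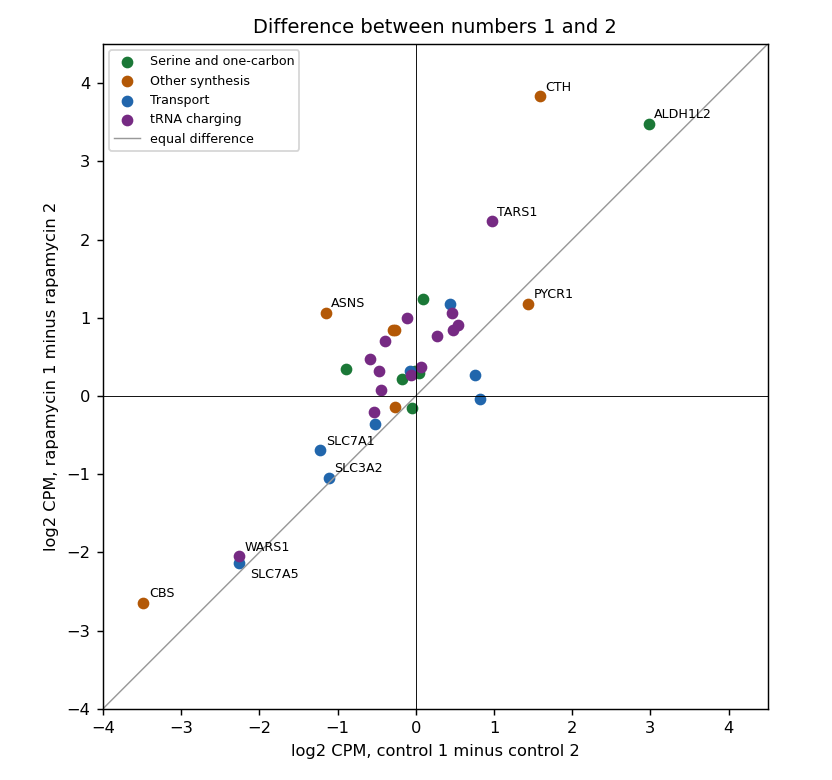
Difference in log2 CPM between number 1 and number 2 in the controls (horizontal) and with rapamycin (vertical) for the 36 members, coloured by role, with the line of equal difference. SLC7A5, WARS1 and CBS lie at the lower left near the line, while CTH and ASNS lie above it.

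Summed over the 36 members, the level was 13930 and 21472 CPM with rapamycin against 7069 and 13120 CPM in the controls. The sum is weighted by SLC7A5, and without it the sums were 11199 and 9432 CPM against 5741 and 6784 CPM. Both treated libraries exceeded both controls with SLC7A5 and without it. The sum of the 14 synthetases was 5737 and 4201 CPM with rapamycin against 2720 and 2963 CPM in the controls.

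Other genes of the same processes were counted by lists. Of 9 further cytosolic synthetases and their scaffold proteins, the block called 0 higher and 1 lower, FARSA, with 3 at an unadjusted p under 0.05 and 0 called by edgeR without the block. FARSA, a subunit of the phenylalanine enzyme, was 80.2 and 75.3 CPM with rapamycin against 121 and 153 CPM in the controls (blocked log2 fold change −0.81, SE 0.26, adjusted p = 0.0497). RARS1, the arginine enzyme, was 65.4 and 53.0 CPM against 74.3 and 120 CPM (−0.68, adjusted p = 0.138). The treated libraries of both lay below the controls, and the median log2 fold change of the list was −0.54 without the block, against 0.75 for the 14 synthetases among the members. The 17 mitochondrial synthetases had a median of −0.36, and the block called 0 higher and 1 lower, with 4 at an unadjusted p under 0.05. The lower gene, LARS2, was 28.8 and 39.0 CPM against 48.6 and 80.1 CPM (adjusted p = 0.0454), and CARS2 was 76.3 and 52.0 CPM against 116 and 103 CPM (adjusted p = 0.0545).

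Of 22 other amino acid enzymes, 19 were tested, with a median log2 fold change of 0.11, and the block called 0 higher, with 3 of the 19 at an unadjusted p under 0.05 in either direction. ASS1, of arginine synthesis, was 267 and 1072 CPM with rapamycin against 190 and 571 CPM in the controls (adjusted p = 0.0947). Of 16 other amino acid transporters, 14 were tested, with a median of 0.09, and the block called SLC43A1 and SLC43A2 (named after their values were seen) higher and SLC7A6 and SLC1A3 lower. SLC1A3, a glutamate transporter, was 19.6 and 29.2 CPM against 57.8 and 72.5 CPM (blocked log2 fold change −1.44, SE 0.29, adjusted p = 0.0035), and SLC7A6 was 106 and 49.5 CPM against 155 and 153 CPM (−1.09, SE 0.28, adjusted p = 0.0197). Both treated libraries of these genes lay below both controls. Each of these 4 lists thus had a lower median than the members, and no test of the difference between lists was run. The members and these lists were chosen with earlier results of these data known, so the difference is a description only.

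The list of 12 genes of the ATF4 response outside amino acid metabolism had a median log2 fold change of 1.30. The block called 7 higher and 1 lower, compared with 4.65% and 3.5% of all tested genes. CHAC1 and SESN2 (named after their values were seen) went opposite ways in the pairs. With rapamycin, CHAC1 was 37.9-fold its control in number 1 and 0.41-fold in number 2, and SESN2 was 3.74-fold and 0.67-fold. This list too was chosen with earlier results of these data known. ATF4 itself was 658 and 528 CPM with rapamycin against 392 and 435 CPM in the controls, without overlap and without passing (blocked log2 fold change 0.51, SE 0.26, adjusted p = 0.231). ATF3, a transcription factor of the stress response, was 65.1 and 45.0 CPM against 11.1 and 6.59 CPM. DDIT4, which encodes the mTORC1 inhibitor REDD1, was 272 and 1465 CPM against 27.3 and 348 CPM, higher in both pairs with the groups overlapping. The blocked log2 fold changes were 2.66 (SE 0.32) for ATF3 and 2.69 (SE 0.31) for DDIT4. The 1 lower gene, named after its values were seen, was ATF5, at 16.7 and 9.54 CPM against 75.9 and 42.1 CPM. Near copies of members took few reads, with PSPHP1 and SLC7A5P1 at or below 1.82 CPM in every library.

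**Figure D4:**
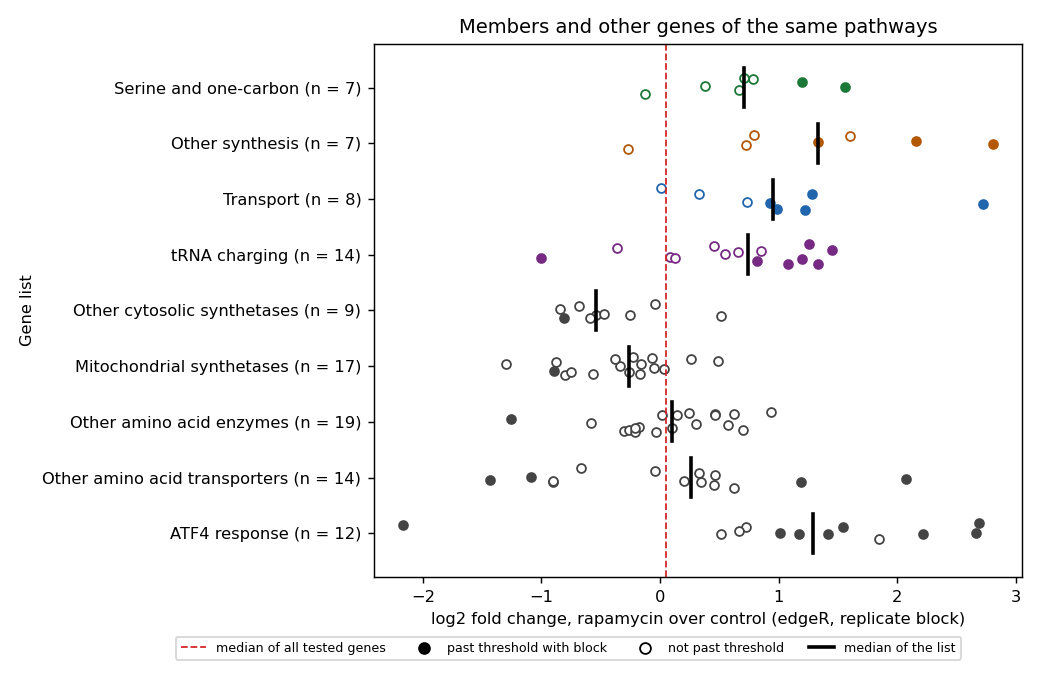
Log2 fold change of each tested gene in the blocked fit (rapamycin over control), by list, with filled points past the threshold, a black bar at the median of each list and a dashed line at the median of all tested genes. The bars of the 4 member groups and of the ATF4 response lie between 0.71 and 1.33, and those of the other 4 lists lie between −0.54 and 0.26.

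Among the 27 members with a start-site window, the core TGATGNAA was found in 2 of the 12 called higher with the block and in 5 of the other 15. The former are AARS1 and SLC1A5, of which SLC1A5 holds it before a start site inside its gene. ASNS, MTHFD1L, GOT1, IARS1 and GARS1 carry it and did not pass, although ASNS, GOT1, IARS1 and GARS1 had both treated libraries above both controls.

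m6A peaks were annotated to 15 of the 36 members, 39 peaks in all over the 4 lists, and 21 members had none. The authors called peaks on 1 pair of libraries for each cell line and treatment, so that no peak value has a replicate within a cell line, no test between treatments was run, and neither the depth nor the scaling behind the fold enrichment is known. In HSC3, 8 members had a peak in control cells (22.2%, 95% Wilson interval 11.7 to 38.1, compared with 17.6% of all tested genes) and 5 with rapamycin (13.9%, 6.08 to 28.7, compared with 17.5%). In CAL33, 7 members had a peak in control cells (19.4%, 9.75 to 35.0, compared with 16.1%) and 6 with rapamycin (16.7%, 7.87 to 31.9, compared with 14.2%). The share of members with a peak was thus near the background in each list. By role, 28 of the 39 peaks lay on 6 transport genes and 8 on 6 synthetases, with 2 on the serine and one-carbon group and 1 on the other synthesis group. SLC7A5, which had the most counts of any member in each RNA-seq library, held more of the transport peaks than any other gene. By the authors' annotation 30 peaks were in the 3′ UTR, 5 in an exon with no further class, 2 in the CDS and 2 in the 5′ UTR. With hg38, the build named in the submitters' processing notes, 37 of the 39 lay inside the RefSeq bounds of their gene.

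Peaks on both treatments of a cell line were found for 5 members. Of the rapamycin peaks on members, 4 of 8 in HSC3 and 6 of 12 in CAL33 overlapped a control peak of the same strand, compared with 28.4% and 29.9% of all rapamycin peaks. Several of these overlapping peaks lay on SLC7A5. Since the scaling of fold enrichment between lists is unknown, each value is given with its percentile among all peaks of its list. In HSC3 the median over all peaks was 33.6 without and 33.3 with rapamycin, and in CAL33 it was 42.6 without and 35.9 with rapamycin. Only SLC7A1 and SLC7A5 had a peak in all 4 lists.

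The large peak in the 3′ UTR of SLC7A5 was 33.5 at chr16:87830679-87831366 in HSC3 control cells (percentile 48.2), and with rapamycin this region held 2 peaks, of 25.6 at chr16:87831008-87831545 (42.1) and 3.83 at chr16:87830381-87830948 (3.72). In CAL33 it was 19.2 at chr16:87830411-87831515 in control cells (29.5) and 51.7 at chr16:87830411-87831545 with rapamycin (60.2). The largest SLC7A5 peak was therefore lower in percentile with rapamycin in HSC3 and higher in CAL33. A smaller SLC7A5 peak in CAL33, at chr16:87832320-87832559, was 2.33 in control cells and 4.00 with rapamycin, near the bottom of its list in each (percentiles 1.63 and 4.74). The peak in the 3′ UTR of SLC7A1, around chr13:29513929-29514108, was 8.41 in HSC3 control cells (14.2) and 10.9 with rapamycin (21.3). In CAL33 it was 175 at chr13:29513929-29514348 in control cells (83.2) and 28.1 at chr13:29513779-29514228 with rapamycin (44.0).

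SLC1A5 carried a 3′ UTR peak at chr19:46775240-46775478 in CAL33 control cells with a fold enrichment of 18.2 (percentile 28.7), which was 2.64 with rapamycin (2.24). Its 5′ UTR peak was 38.3 at chr19:46787999-46788178 in CAL33 control cells (47.2) and 13.5 at chr19:46787880-46788475 with rapamycin (26.0). The latter spanned 596 bases, against 180 in control cells. Both SLC1A5 peaks were lower in fold enrichment with rapamycin, over spans that differed between treatments. The 3′ UTR peak of AARS1 was 127 at chr16:70252475-70252715 in CAL33 control cells (74.3) and 45.6 at chr16:70252475-70252805 with rapamycin (56.8). It spanned 241 bases in control cells and 331 with rapamycin. An exon peak of SLC1A4 at chr2:65021144-65021353 had the highest fold enrichment among the members, 1200 in HSC3 control cells (99.5), and was 186 with rapamycin (93.2). Blocked mRNA log2 fold changes were 0.93 for SLC1A5, 1.45 for AARS1 and 1.29 for SLC1A4, whose paired peaks had lower fold enrichment with rapamycin. They were 0.98 for SLC7A5 and 0.73 for SLC7A1 (which did not pass), whose paired peaks went either way. These mRNA values come from libraries whose cell line labels conflict with their numbers.

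The other peaks of members had no overlapping partner in the other treatment of the same cell line. In control cells, GPT2, PSAT1, HARS1 and SARS1 each had a 3′ UTR peak in HSC3, of 5.61, 9.84, 7.85 and 6.52, and MTHFD1L, GARS1 and YARS1 had one in CAL33, of 46.8, 11.6 and 7.66. All but that of MTHFD1L were below the median of their list. The GPT2 peak, the only peak of the other synthesis group, had a false discovery rate above 0.05 (log10 −0.611). CARS1 had nearly the same exon peak in HSC3 control cells (39.3, chr11:3000952-3001102) and in CAL33 rapamycin cells (72.3, chr11:3000922-3001102). In rapamycin cells, SLC38A2 had a 3′ UTR peak of 286 in CAL33 (percentile 96.3) and SLC3A2 had one of 4.23 in HSC3. These peaks lie outside the naming rule and are given so that each member with a peak is accounted for. The 9 remaining peaks without a partner lay on SLC1A4, SLC1A5, SLC7A1 and SLC7A5 and had fold enrichments between 1.21 and 93.0.

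**Figure D5:**
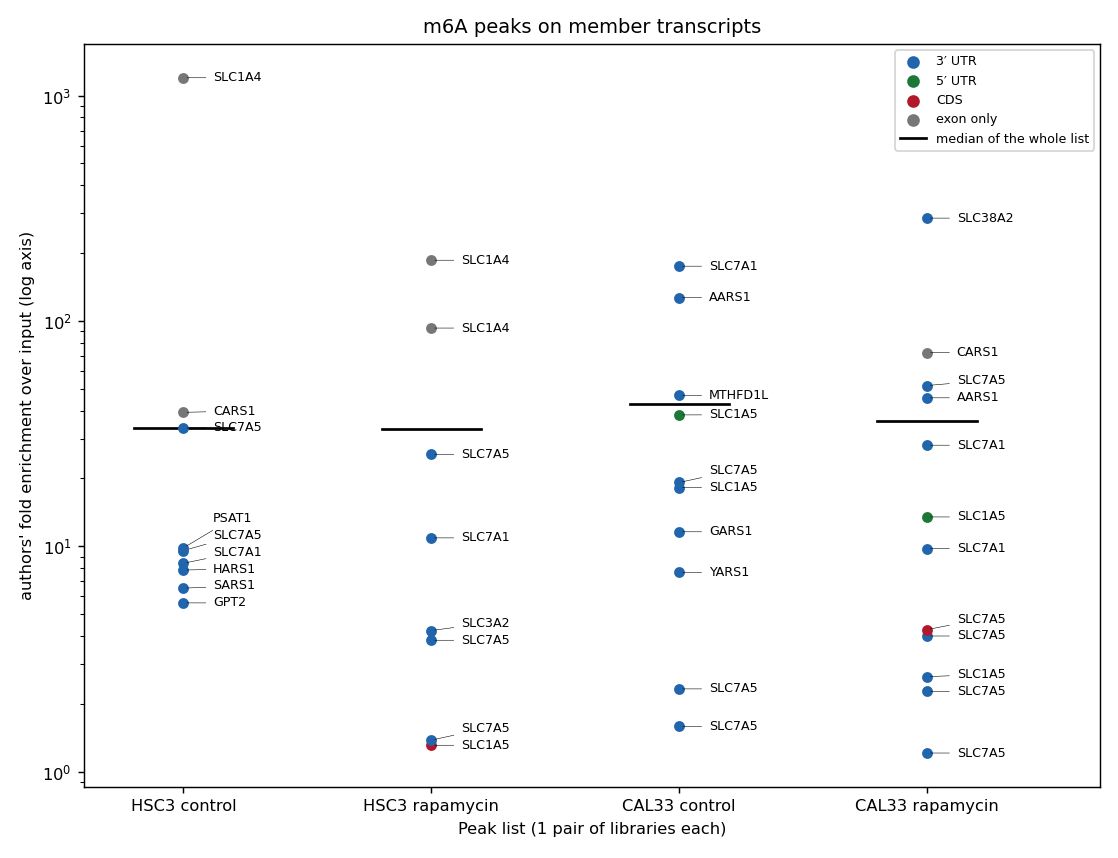
Fold enrichment over input (log axis) of each m6A peak annotated to a member, by peak list, coloured by the authors' region class, with a black bar at the median of all peaks of the list. SLC1A4 is highest in HSC3 control cells at 1200 and 186 with rapamycin, and SLC7A5 and SLC7A1 appear in all 4 lists.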

How the data were processed

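The RNA-seq table deposited by the authors holds raw counts of reads per Ensembl gene, with no scaling, from a kit that the labels call stranded. The MeRIP-seq files deposited by the authors are 1 peak list for each pair of immunoprecipitate and input, with a fold enrichment (a ratio over input), a log10 p-value, a log10 false discovery rate and a score that repeats the p-value. The submitters' processing notes name cutadapt 2.5, HISAT2 2.1.0, featureCounts 1.6.3, HOMER 4.10.4 and hg38 without their roles. The count table itself is named for HTSeq, so the counter is uncertain. How strand was used in counting and how peaks were called are not given in the sources used here, and peak depth is unknown.

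edgeR 4.0.16 in R 4.3.3 was run on the counts (filterByExpr, TMM, robust quasi-likelihood test, two-sided) for the 15826 genes kept, with Benjamini-Hochberg adjustment over all of them and a threshold of 0.05. Log2 CPM were computed in edgeR, which adds a small prior count. At low counts, differences in log2 CPM are therefore smaller than the ratios of the CPM given. Peak overlaps (at least 1 bp, same strand, within exonic blocks) were computed in Python 3.11.15 and Wilson and exact intervals in scipy 1.17.1. Standard errors are those implied by the test statistic. With 4 libraries, the blocked fit leaves little information on the spread of a single gene. Its standard errors and p-values therefore lean on the spread estimated across genes. Alternatives were the number as a replicate block, upper-quartile scaling, both together, DESeq2 1.42.0, no filter, a minimum of 10 counts in each library, each library left out, stricter peak thresholds (a false discovery rate of at most 0.05, a fold enrichment of at least 4), an overlap of 50% and fold enrichment over the list median.

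The pairing of the numbers was checked. Across 15826 genes, which are not independent replicates, the difference between numbers 1 and 2 with rapamycin correlated with that in the controls (r = 0.90), and the common dispersion was 0.64 without and 0.06 with the block. The pairing comes from the labels of the MeRIP-seq libraries, where number 1 is HSC3 and number 2 is CAL33, and the RNA-seq labels go against it. Genes with a peak in both HSC3 lists and neither CAL33 list (357) were higher in number 1, with a median log2 difference of 0.41 in the controls and 0.48 with rapamycin, and genes with a peak only in CAL33 (189) were lower, with −0.44 and −0.43. The blocked value is given beside results whose call it changes.

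The members, the role groups and the other gene lists were chosen with earlier results of these data known. Values in every library are given for the 3 members of each role group with the largest absolute log2 fold change without the block, for members past the threshold with the block and for CBS, and other members are given in brief. From each other list the 2 genes with the smallest blocked p-value were named, except 1 result that is not reported here, and peaks were named where treatments of a cell line overlapped or 3 or 4 lists held one. The tests were checked on simulated counts with known changes, equal in both numbers and drawn at the common dispersion of the blocked fit. Only genes with higher counts were changed there, so the check does not cover genes with few counts or with unlike pairs. Symbols, gene bounds and start-site sequences are from RefSeq (GRCh38.p14). Peak sequences were not read, since no genome of the files' build was used here.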

Additional observations from a re-analysis of the deposited data

Results flagged for a closer look

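For 2 transporters, the 3′ UTR peak moved in opposite directions in HSC3 and CAL33, each judged by the percentile of its fold enrichment among the peaks of its own list. For SLC7A1, rapamycin minus control was 7.08 percentile points in HSC3 and −39.2 in CAL33. For SLC7A5, the peak with the largest overlap differed by −6.09 points in HSC3 and by 30.7 points in CAL33. With 1 pair of libraries for each cell line and treatment, the difference between the cell lines was not tested.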

How the results depend on the processing

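The number of members called higher was 0 in the fit of treatment alone, 16 with the replicate block, 3 with DESeq2 (3 members had no adjusted p there, and 22 higher and 20 lower were called among 15826 genes) and 18 with the replicate block and upper-quartile scaling, and the number called lower was 1 with the block and 1 with the block and that scaling. Upper-quartile scaling alone, both filters and leaving out each library called 0 members in edgeR, with 60 to 525 genes in the whole table at an unadjusted p under 0.05. The SLC38A2 log2 fold change, −0.01, was 0.0046 with the block, 0.066 with upper-quartile scaling, 0.0043 with DESeq2 and 0.017 with a minimum of 10 counts in each library. The median of the transport group was 0.98 with upper-quartile scaling, and 0.61 to 1.22 with a library left out, and that of other synthesis was 0.28 to 1.53. With a library left out and no block, 26 of 36 members kept their sign, of which 9 stayed within 1.5 times their value and 17 did not, among them CBS (0.55 to 5.68), PYCR1 (0.011 to 1.58), SLC7A1 (0.096 to 1.37), LARS1 (0.068 to 0.77), IARS1 (0.14 to 1.14), GOT1 (0.28 to 1.12), PSAT1 (0.56 to 1.79) and SLC1A4 (0.65 to 1.84). The ranges of the other 10 were −0.11 to 0.83 for MTHFD1L, −0.98 to 3.90 for ALDH1L2, −0.10 to 3.85 for CTH, −0.51 to 2.47 for SLC7A5, −0.32 to 0.97 for SLC3A2, −0.31 to 0.27 for SLC38A2, −0.49 to 0.58 for NARS1, −0.64 to 2.28 for WARS1, −1.09 to 1.14 for TARS1 and −0.86 to 0.047 for VARS1. Of these 10, ALDH1L2, CTH, SLC7A5, SLC3A2 and WARS1 were higher with rapamycin in both pairs and VARS1 was lower in both. MTHFD1L, SLC38A2, NARS1 and TARS1 went opposite ways in the pairs. Without 1 library and the block, the treatments no longer hold both numbers alike, so the value also carries the difference between numbers. Its share in each range was not tested. Such fits leave 1 library in a group, which is assumed to vary like the other group. CBS was not tested under that minimum. The counts of members with a peak and of shared member peaks stayed within 1.5 times under the stricter thresholds, and no shared peak changed direction when divided by the list median.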
